A study of Mus musculus with 7 samples.

Results

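Cholesterol is built from acetyl-CoA through mevalonate, isoprenoid and squalene intermediates and then through lanosterol, and the pathway is set by a sensor in the endoplasmic reticulum. There the escort protein SCAP holds the transcription factor SREBP2 (gene Srebf2), INSIG proteins retain the SCAP and SREBP2 complex while sterols are plentiful, and SREBP2 released to the Golgi and cleaved raises transcription of the synthesis enzymes and of Insig1. The liver makes, esterifies, secretes and takes up cholesterol, and hepatocytes are the main site of these steps.

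The genes described here are 33 named genes of cholesterol synthesis, sensing and trafficking, of which 31 were measured among 19933 genes. They were taken by name, and each is read from the brightest probe set annotated with exactly that 1 gene symbol. The esterifying enzymes Soat1 and Soat2 had no such probe set, so their expression was not analysed here. Livers came from male C57BL/6 mice aged 4 months fed normal chow freely, and all of them received an adeno-associated virus (AAV) carrying Cre recombinase. The 3 knockout livers (AAV-Cre) had the Cre virus alone, and the 4 rescued livers (AAV-Cre + AAV-HDAC3 WT) had in addition a second AAV for wild-type HDAC3 with a Flag tag. HDAC3 is a histone deacetylase of nuclear receptor corepressor complexes. All livers were taken 2 weeks after injection, at 5 pm (ZT10, 10 h into the light phase), and each was read on 1 Affymetrix Mouse Gene ST array. The labels give neither the Hdac3 allele on which Cre acts nor the promoters of the vectors, the rescued mice carry 1 vector more than the knockout mice, and livers without virus were not analysed here. Levels are given as log2 intensity, and each difference is knockout minus rescued.

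The regulatory sequences that bear on the results are those just before the annotated starts of Hmgcs1 and Insig2, the members whose expression passed the test described further on, and of Insig1, the paralog of Insig2. Each run is the 250 bases before an annotated start, read 5′ to 3′ on the gene's strand, from RefSeq (GRCm38.p6). Capitals mark matches on either strand to TCACNCCA (a motif of the sterol regulatory element type, which SREBPs bind), to CCAAT (the NF-Y box, written ATTGG on the other strand) or to CACGTG (the E-box).
Hmgcs1 (chr13:119690101-119690350, plus strand): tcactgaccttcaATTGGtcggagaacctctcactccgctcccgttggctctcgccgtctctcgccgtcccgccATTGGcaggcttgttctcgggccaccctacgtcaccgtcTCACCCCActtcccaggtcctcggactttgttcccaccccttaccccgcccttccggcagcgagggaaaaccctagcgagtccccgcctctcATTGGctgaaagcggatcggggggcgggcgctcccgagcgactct
Insig2, farthest upstream of 3 annotated starts (chr1:121332590-121332839, minus strand): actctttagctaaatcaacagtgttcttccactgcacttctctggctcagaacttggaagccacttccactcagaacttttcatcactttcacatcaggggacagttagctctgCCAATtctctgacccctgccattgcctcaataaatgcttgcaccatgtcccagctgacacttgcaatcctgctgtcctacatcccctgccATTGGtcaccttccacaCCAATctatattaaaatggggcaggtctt
Insig1 (chr5:28071162-28071411, plus strand): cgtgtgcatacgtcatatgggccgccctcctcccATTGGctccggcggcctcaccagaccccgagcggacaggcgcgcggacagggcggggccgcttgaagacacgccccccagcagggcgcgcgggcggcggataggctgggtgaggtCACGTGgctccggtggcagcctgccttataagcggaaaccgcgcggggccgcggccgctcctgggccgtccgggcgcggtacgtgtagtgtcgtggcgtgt

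The Hmgcs1 window held 1 match to TCACNCCA, with its last base 130 bases before the start, and 3 to CCAAT. The Insig1 window held 1 match to CCAAT and 1 to CACGTG. At Insig2 the farthest upstream window held 3 matches to CCAAT, and the windows of its other starts held no match to any of the 3 motifs. Promoter windows were found for 26 of the 33 genes, Soat1 included. Fdps, Fdft1, Sqle, Npc1, Stard4, Soat2 and Scarb1 had none. Among the 26 genes with windows, 25 (96.2%) held CCAAT in at least 1 window, against 37.5% of 27025 genes in the table. TCACNCCA occurred in 4 genes (15.4%), against 4.20% of all genes, and CACGTG in 5 (19.2%), against 6.86%. No match to TCACNCCA overlapped a match to CCAAT in these windows. The other genes with TCACNCCA were Msmo1, Srebf2 and Stard3, and the stretches around these matches are shown because the first of them is a synthesis enzyme and the second is the pathway's transcription factor, with the sterol carrier gene Stard3 beside them.
Msmo1 (chr8:64733732-64733771, minus strand): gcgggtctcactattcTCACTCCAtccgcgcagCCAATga
Srebf2 (chr15:82147091-82147130, plus strand): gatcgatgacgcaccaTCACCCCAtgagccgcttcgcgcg
Stard3 (chr11:98358141-98358180, plus strand): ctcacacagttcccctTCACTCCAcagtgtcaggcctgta
A match is a run of letters, and no binding was measured here.

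Hdac3 itself averaged 8.92 ± 0.16 (SD, n = 3) in knockout livers and 9.40 ± 0.13 (SD, n = 4) in rescued livers, a fall of 0.48 on the log2 scale (adjusted p = 0.0124 in limma's moderated test). Without knockout replicate 1 the difference was -0.49 (adjusted p = 0.05). Neither labels nor annotation say whether its probe set also reads the vector transcript. Arrays carried median intensities of 105.01 to 110.85 in knockout and 96.29 to 102.33 in rescued livers, and the median difference of all genes was 0.09. Of 7 hepatocyte markers measured, none was called, and their summed linear intensities were 61021 to 61681 in knockout and 60102 to 63183 in rescued livers. None of 7 Kupffer cell, 4 cholangiocyte or 4 lymphocyte markers was called. Among 6 endothelial markers Clec4g was called lower, and among 7 stellate cell markers Lrat was called higher. Of the 7 stellate markers 5 differed above 0 and 2 below. Lrat, Des, Col1a1 and Colec11, 4 of the 7, were higher in every knockout liver than in any rescued one, as were 21.0% of all genes. Dcn, at 11.35 in knockout and 11.43 in rescued livers, was the brightest stellate marker and weighs most in the sum. The summed levels were 3902 to 4788 in knockout and 4719 to 4864 in rescued livers for the endothelial list, and 4253 to 4721 in knockout and 4188 to 4635 in rescued livers for the stellate list. Cholangiocyte markers summed to 513 to 584 in knockout and 445 to 492 in rescued livers, and no marker intensity was at 0. All 4 cholangiocyte differences were above 0, as were 68.5% of all genes, and 1 of them, Sox9, did not overlap between groups. Kupffer cell markers summed to 2896 to 3094 in knockout and 2231 to 3317 in rescued livers, and lymphocyte markers to 385 to 433 in knockout and 371 to 416 in rescued livers. Of 5 markers of steroidogenic tissue Mc2r was called higher, at percentiles 52.0 in knockout and 43.3 in rescued livers among receptor genes of the nose, taken as genes that liver should lack. The part of these cell types in the results below was not tested. In whole liver RNA, fewer cells of a type and less RNA per cell cannot be told apart.

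Of the 31 measured genes, 2 were higher in knockout livers and none was lower at an adjusted p under 0.05 in limma's test over all genes. The background was 14.4% of all genes called, with 9.54% higher and 4.85% lower. The called members, 2 of 31, were Insig2, an INSIG retention protein of the sensor, and Hmgcs1, the HMG-CoA synthase at the entry to the mevalonate pathway. At an unadjusted p under 0.05 there were 4 of 31 members, against 35.7% of all genes. The median difference of the members was 0.11, against 0.09 for all genes. After cyclic loess the members' median was 0.13 against 0.0035, after quantile normalization 0.12 against 0.0067, and after median centring 0.0246 against -0.0002. Leaving out rescued replicate 4 gave 0.0171, knockout replicate 1 gave 0.0345 and rescued replicate 2 gave 0.038, so its size rested on single arrays. Hmgcs1 and Insig2 were also the members called higher after each rescaling, in which the split of calls over all genes moved. Of all genes 9.83% were called after quantile normalization (4.51% higher), 9.74% after cyclic loess (4.38% higher) and 12.4% after median centring (3.37% higher).

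**Figure D1:**
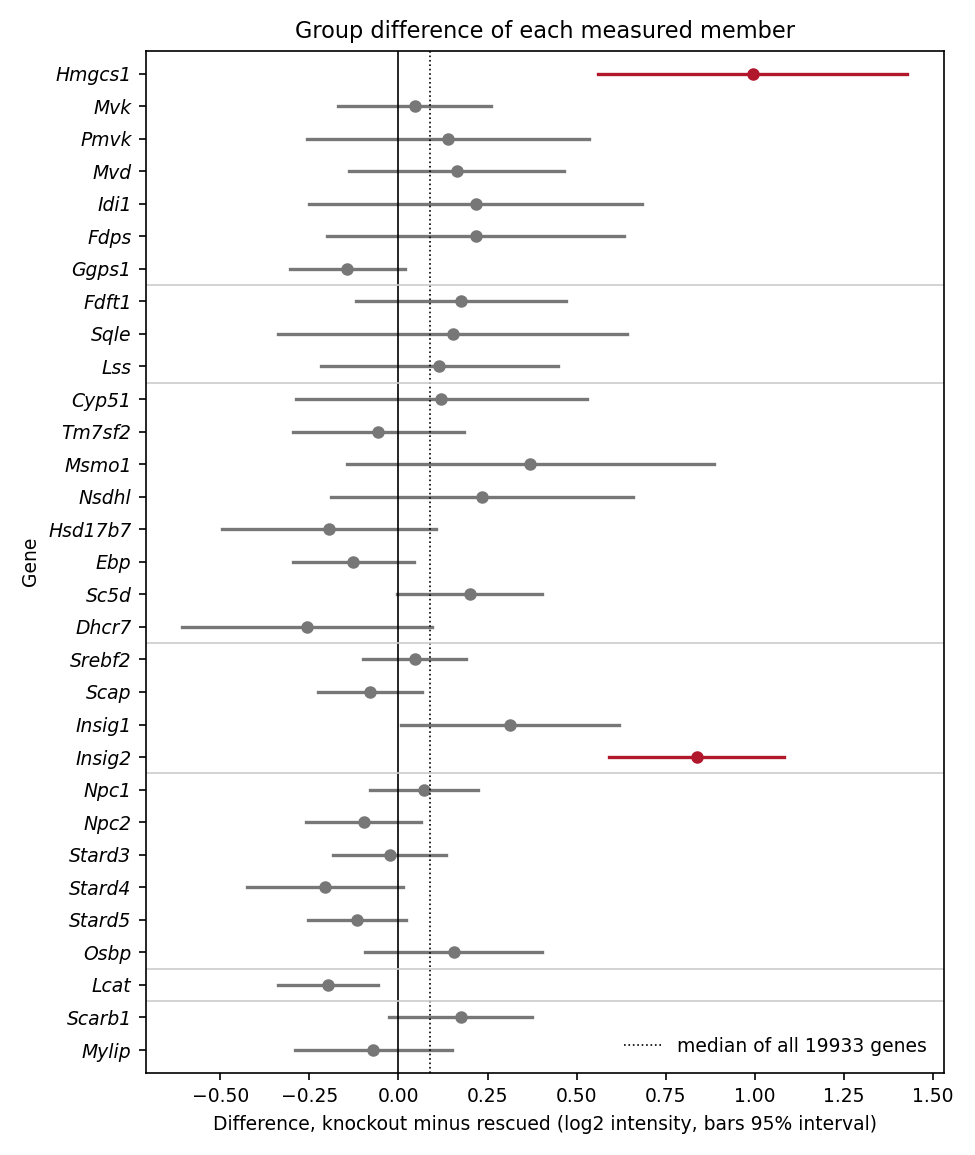
Difference in log2 intensity (x axis, knockout minus rescued, points with 95% intervals from limma) for each of the 31 measured genes (y axis, in order of role, lines between roles). Red marks genes called higher, grey genes that were not called, and the dotted line the median of all genes. Hmgcs1 at 0.99 and Insig2 at 0.84 stand apart, and the intervals of Idi1, Sqle, Msmo1 and other synthesis enzymes are wide.

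Among the 4 genes of the sterol sensor, Insig2 was higher in every knockout liver than in any rescued liver. Insig2 read 11.12, 10.66 and 10.64 in knockout livers, against 9.95, 9.99, 9.89 and 10.05 in rescued livers. The rescued livers lay within 0.16 of each other, and the gap to the lowest knockout liver was several times that spread. The means were 10.80 ± 0.28 (SD, n = 3) in knockout and 9.97 ± 0.07 in rescued livers (SD, n = 4), a difference of 0.84 (SE 0.11) or 1.79-fold (95% interval 1.51-fold to 2.12-fold, adjusted p = 0.00177). Insig2 was called with the same sign in every alternative run, with differences from 0.68 to 0.92 when each array was left out. The Insig2 gene is known in mouse liver for an alternative first exon, for repression by insulin and for rhythmic expression under the nuclear receptor REV-ERB alpha. Its probe set gives 1 value for the gene and does not separate transcripts by their start.

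Insig1, the INSIG paralog whose gene is an SREBP target, read 12.07, 11.98 and 11.51 in knockout livers, against 11.80, 11.40, 11.59 and 11.37 in rescued livers. The groups overlapped, since knockout replicate 3 lay below rescued replicates 1 and 3. The difference was 0.31 (95% interval 0.0081 to 0.62, adjusted p = 0.132), and it was called only when knockout replicate 3 was left out (0.48, adjusted p = 0.0352). Within each array, Insig2 minus Insig1 averaged -1.05 ± 0.24 in knockout (SD, n = 3) and -1.57 ± 0.24 in rescued livers (SD, n = 4), a gap of 0.52. The values of the groups almost met, at -1.3191 in knockout replicate 2 and -1.3218 in rescued replicate 4. An exact permutation test over the 35 splits of the arrays gave p = 0.0571. That is the smallest value it can give with these group sizes, so it could not reach 0.05 and decides nothing. Srebf2, the gene of SREBP2, averaged 8.53 ± 0.05 in knockout livers and 8.49 ± 0.04 in rescued ones, with an interval of the difference from -0.10 to 0.19. Scap, the gene of the escort protein, averaged 9.86 ± 0.04 in knockout livers and 9.94 ± 0.06 in rescued ones, with an interval from -0.23 to 0.07.

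**Figure D2:**
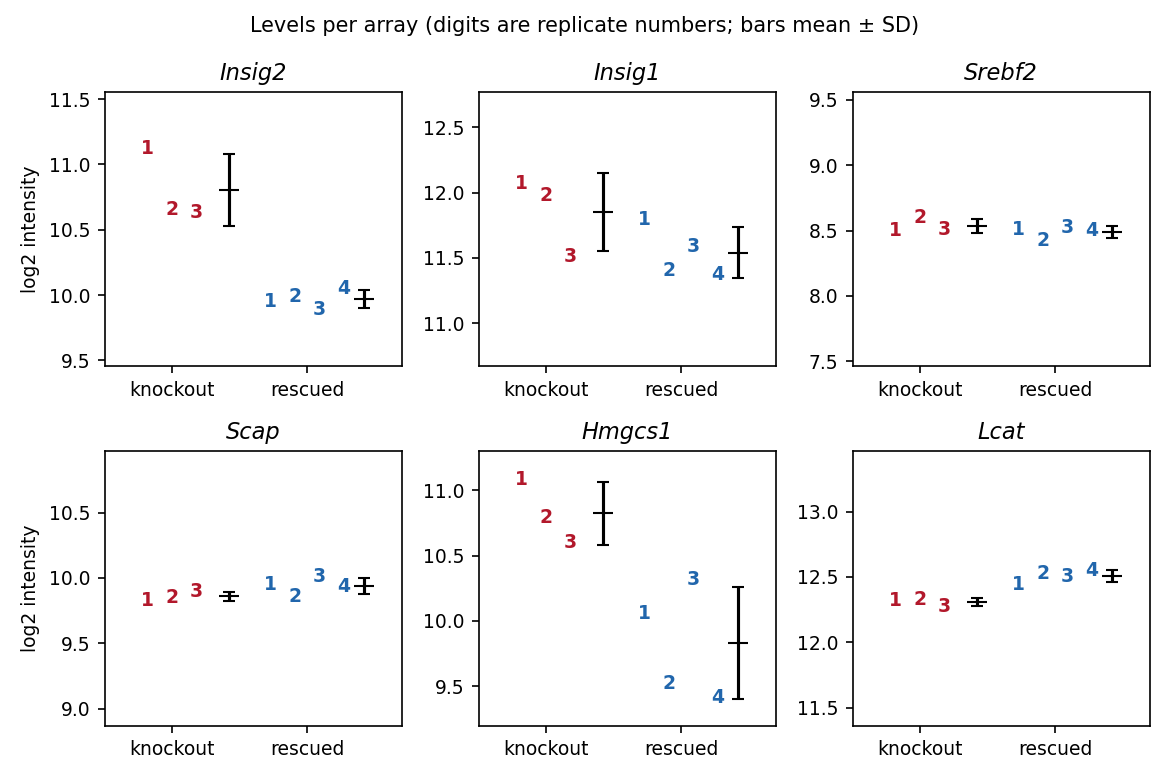
Log2 intensity (y axis, the same span in each panel) of Insig2, Insig1, Srebf2, Scap, Hmgcs1 and Lcat in each liver (x axis, knockout left and rescued right). Digits are replicate numbers and bars show mean ± SD (n = 3 knockout, n = 4 rescued). Insig2 and Hmgcs1 lie higher in all knockout livers, Lcat lower in all of them, and Insig1 overlaps.

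Of the 7 enzymes of the mevalonate and isoprenoid steps, Hmgcs1 was higher and the other 6 were not called. Hmgcs1 read 11.08, 10.79 and 10.60 in knockout livers, against 10.06, 9.52, 10.32 and 9.42 in rescued livers. The groups did not overlap, but the rescued livers spread over 0.90, or 1.87-fold. The difference was 0.99 (SE 0.20), or 1.99-fold (95% interval 1.47-fold to 2.69-fold, adjusted p = 0.0121). Without knockout replicate 1 it was 0.87 and no longer called (adjusted p = 0.0674), and with each array left out it ranged from 0.86 to 1.16. Ggps1, which makes geranylgeranyl diphosphate at a branch away from sterols, read 7.28, 7.39 and 7.36 in knockout livers, against 7.49, 7.61, 7.44 and 7.40 in rescued livers. The highest knockout value was just under the lowest rescued value, and the difference of -0.14 was not called (adjusted p = 0.178). Separation of all arrays of one group from all of the other occurred in 5 of 31 members, with knockout above rescued in 2 (Hmgcs1, Insig2) and below in 3 (Ggps1, Stard5, Lcat). Over all genes it occurred in 29.6%, with knockout above in 21.0% and below in 8.56%.

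The other enzymes of this stretch are the mevalonate kinase Mvk, the phosphomevalonate kinase Pmvk, the decarboxylase Mvd, the isomerase Idi1 and the farnesyl diphosphate synthase Fdps. Their differences ran from 0.05 for Mvk to 0.22 for Idi1 and Fdps, with adjusted p from 0.395 to 0.75. Leaving out 1 array moved Fdps between 0.0565 and 0.38, Pmvk between 0.0214 and 0.26 and Idi1 between 0.029 and 0.41. Idi1 is uncertain, because its probe sets disagreed. The brighter one differed by 0.22, while the other read 9.10, 9.40 and 9.81 in knockout livers, against 10.32, 9.52, 10.30 and 9.45 in rescued livers, a difference of -0.46. With the probe sets averaged, Idi1 differed by -0.12 (adjusted p = 0.671).

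None of the 3 enzymes that make squalene and close the sterol ring passed. Fdft1, the squalene synthase, differed by 0.18, Sqle, the squalene epoxidase, by 0.15 and Lss, the lanosterol synthase, by 0.11, with adjusted p from 0.352 to 0.631. Leaving out 1 array moved Fdft1 between 0.0923 and 0.27 and Lss between 0.0171 and 0.22. The probe sets of Fdft1 gave differences of 0.18 and 0.35. The dimmer one read 11.43, 11.21 and 11.15 in knockout livers, against 11.14, 10.67, 11.14 and 10.69 in rescued livers, narrowly without overlap. The brighter one, which stands for Fdft1 in the counts, overlapped. It had its lowest knockout value, 11.20, in knockout replicate 1, where the dimmer one had its highest. With the probe sets averaged, Fdft1 differed by 0.26 (adjusted p = 0.147). The interval for Sqle ran from -0.34 to 0.64 at 7 arrays. It held no change, but also a rise of up to 1.56-fold and a fall of up to 0.34 on the log2 scale.

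None of the 8 enzymes after lanosterol passed either, and their directions were mixed, with 4 differences above 0 and 4 below. Msmo1, the methyl sterol monooxygenase, had the largest difference of them, 0.37 (95% interval -0.14 to 0.88, adjusted p = 0.265). Sc5d, the sterol desaturase, differed by 0.20 (adjusted p = 0.147), the dehydrogenase Nsdhl by 0.23 and the lanosterol demethylase Cyp51 by 0.12. Below 0 were Dhcr7, which makes cholesterol from its dehydro precursor (-0.26, adjusted p = 0.257), the reductase Hsd17b7 (-0.20), the isomerase Ebp (-0.13) and the sterol reductase Tm7sf2 (-0.06).

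Hmgcs1 was also set against the other enzymes on the same array. Hmgcs1 minus the mean of the other 17 synthesis enzymes was 1.18, 0.97 and 0.90 in knockout livers, and lay between -0.0072 and 0.31 in rescued livers. This contrast was chosen after the values were seen and was not tested. Over all 18 synthesis enzymes the median difference was 0.15, and 13 of the 18 were above 0, as were 68.5% of all genes. That median was 0.0193 when rescued replicate 4 was left out, 0.0481 for knockout replicate 1 and 0.0594 for rescued replicate 2, and was 0.23 and 0.25 when rescued replicates 1 and 3 were left out in turn. After median centring it was 0.056 against -0.0002 for all genes, with 12 of the 18 above 0. After cyclic loess it was 0.1482, with 13 of the 18 above 0 against 51.0% of all genes. Quantile normalization gave 0.1514, with 13 of the 18 above 0 against 51.9% of all genes.

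**Figure D3:**
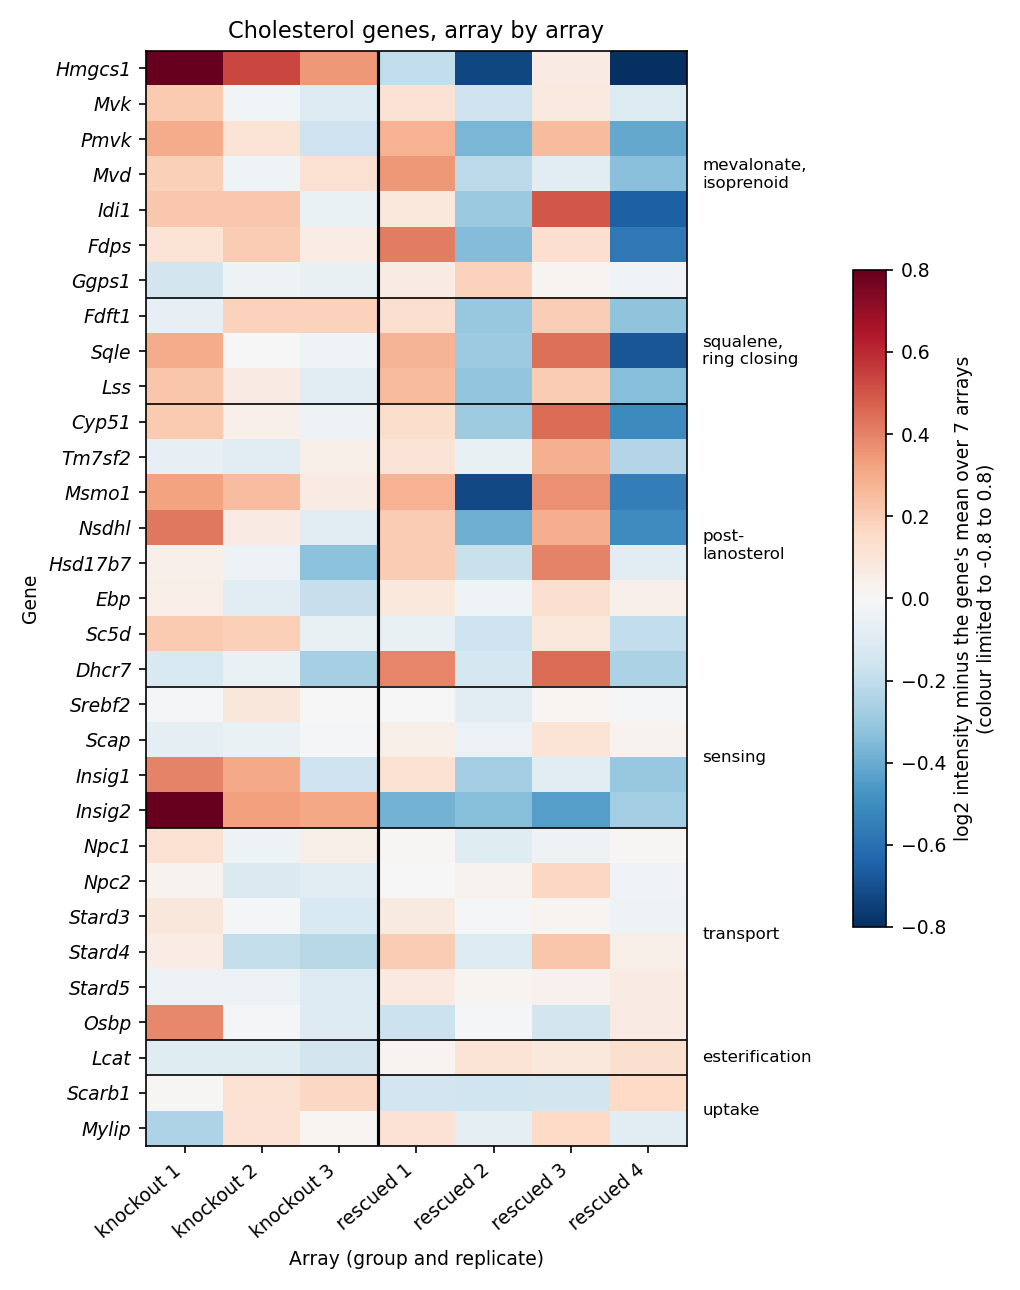
Log2 intensity of the 31 measured genes (y axis, grouped by role) on each array (x axis, knockout left of the line and rescued right), as the deviation from the gene's mean over the 7 arrays, with colour limited to -0.8 to 0.8. Hmgcs1 and Insig2 are red in all knockout arrays, while most synthesis enzymes are red in rescued replicates 1 and 3 and blue in rescued replicates 2 and 4.

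Most synthesis enzymes varied together within the rescued group. In 17 of 18 of them both rescued replicates 1 and 3 lay above both rescued replicates 2 and 4, an order found in 12.1% of all genes and in 11.8% of genes above the median level. The exception was Ggps1. This order was noticed in the values and is a description of these 4 livers. Sqle read 9.58 and 9.75 in rescued replicates 1 and 3, and 9.02 and 8.62 in rescued replicates 2 and 4, a 2.18-fold range. The knockout livers read 9.60, 9.30 and 9.27, inside the span of the rescued livers, with knockout replicate 1 just above rescued replicate 1. Msmo1 covered 2.12-fold, Idi1 2.22-fold, Fdps 1.98-fold and Cyp51 1.94-fold among rescued livers. The Idi1 range is from the brighter of its probe sets, which disagreed on the group difference. The other Idi1 probe set kept the order of the rescued livers, at 10.32 and 10.30 in replicates 1 and 3 and 9.52 and 9.45 in replicates 2 and 4. The SD of the enzymes had a median of 0.15 in knockout and 0.34 in rescued livers, while over all genes it was 0.11 in knockout and 0.09 in rescued livers.

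Measured as deviations from each gene's mean over the 7 arrays, the 18 enzymes had medians of 0.21, 0.05 and -0.06 in knockout livers, and of 0.17, -0.29, 0.23 and -0.34 in rescued livers. The knockout medians lay inside the span of the rescued ones. The median of all genes stayed between -0.0015 and 0.09 in knockout and between -0.05 and -0.01 in rescued livers, and it did not follow the order of the enzymes. Insig1, Srebf2 and Scap kept the same order of rescued livers as the enzymes, over ranges of 0.43, 0.10 and 0.15, and Insig2 did not. The ranges of Srebf2 and Scap were below the median range of all genes among rescued livers, 0.20. Srebf2 met the order narrowly, at 8.51 in rescued replicate 1 against 8.50 in rescued replicate 4. Over the 13 members that are no synthesis enzyme, 6 (46.2%) showed this order, with Stard3, Stard4 and Mylip the others, while Npc1, Npc2, Stard5, Osbp, Lcat and Scarb1 did not. Among 10 other measured genes listed as sterol-responsive, which include Fasn, Acly and Elovl6 of fatty acid synthesis, 8 showed it. What set this order was not tested.

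**Figure D4:**
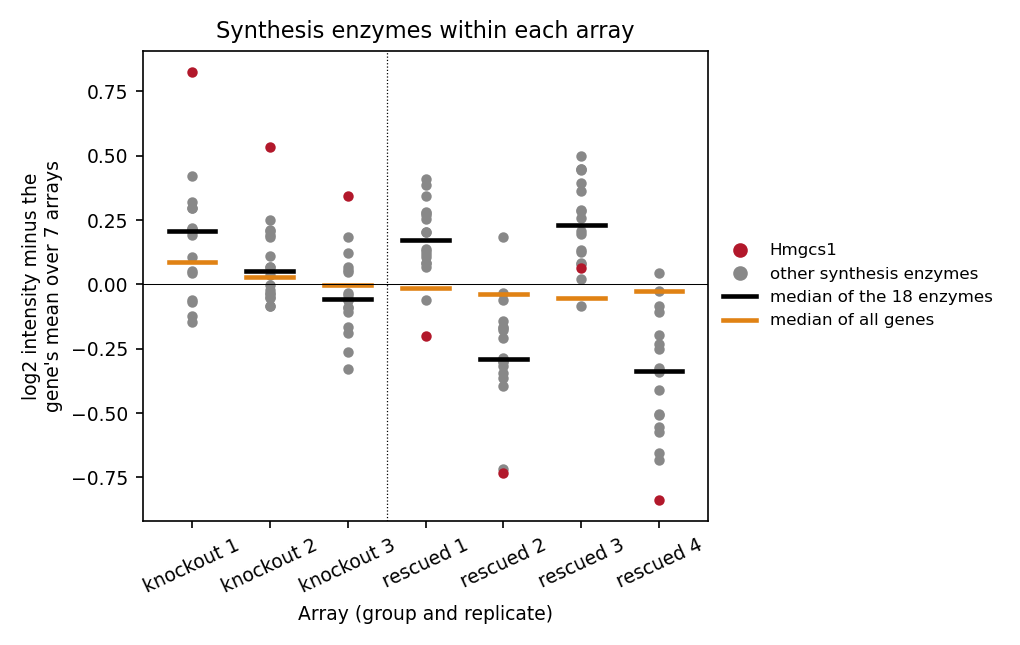
Deviation of log2 intensity from the gene's mean over 7 arrays (y axis) for the 18 synthesis enzymes on each array (x axis, knockout left and rescued right), with Hmgcs1 in red, the other enzymes in grey, the median of the enzymes in black and the median of all genes in orange. Apart from Ggps1, each enzyme is higher in rescued replicates 1 and 3 than in 2 and 4, and Hmgcs1 lies above every other enzyme in each knockout array.

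None of the 6 genes that carry sterol inside the cell was called. Npc1 and Npc2, the membrane and soluble proteins that export cholesterol from lysosomes, differed by 0.07 and -0.10. Among the START domain carriers, Stard3 of late endosomes differed by -0.02 and Stard4, a cytosolic carrier, by -0.21 (adjusted p = 0.16). Stard5, another cytosolic carrier, read 11.60, 11.60 and 11.54 in knockout livers, against 11.72, 11.67, 11.68 and 11.71 in rescued livers. Its groups did not overlap, but the difference was -0.12 (adjusted p = 0.198), and it was called only after median centring (-0.21, adjusted p = 0.048). Osbp, the oxysterol-binding protein that exchanges sterol between the endoplasmic reticulum and the Golgi, differed by 0.16 (adjusted p = 0.328), or by 0.0082 to 0.25 with an array left out. Intervals for these 6 genes lay within -0.43 to 0.40.

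Lcat, which esterifies cholesterol on plasma lipoproteins and is secreted by the liver, read 12.32, 12.33 and 12.28 in knockout livers, against 12.44, 12.53, 12.50 and 12.55 in rescued livers. The groups did not overlap, and the spread within each was small. The difference was -0.20 (SE 0.06, adjusted p = 0.0588), or 1.15-fold lower, and did not pass. It passed after median centring (-0.29, adjusted p = 0.0181), quantile normalization (-0.26, adjusted p = 0.0183) and cyclic loess (-0.26, adjusted p = 0.0193), in which 9.04%, 5.32% and 5.36% of all genes were called lower. It also passed among genes above the median level (adjusted p = 0.0452), of which 20.1% were called, 10.4% higher and 9.76% lower. With a trended and robust spread it passed as well (adjusted p = 0.0297), where 15.0% of all genes were called, 9.89% higher and 5.15% lower. Of the genes of lipoprotein uptake, the HDL receptor gene Scarb1 averaged 10.67 ± 0.08 in knockout livers (SD, n = 3) and 10.49 ± 0.16 in rescued livers (SD, n = 4), with adjusted p = 0.186. Mylip, a ubiquitin ligase that targets lipoprotein receptors, differed by -0.07 (adjusted p = 0.621).

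Other genes of the pathway were read from 7 lists of 87 genes, 74 of them measured, of which 14 were called, 7 higher and 7 lower. The background as deposited was 14.4%, split unevenly into 9.54% up and 4.85% down, whereas the calls in these lists split evenly. After quantile normalization 5 were higher and 8 lower, against 4.51% and 5.32% of all genes. Cyclic loess gave 4 and 7, against 4.38% and 5.36%. Median centring gave 3 and 8, against 3.37% and 9.04%. The excess of higher calls in the background was thus not seen after these rescalings. Whether the lists differ from the background was not tested, and they were chosen with earlier results of these data known. In oxysterol metabolism, 2 of 8 genes were lower and none was higher. Cyp7b1, an oxysterol hydroxylase of the alternative bile acid pathway, read 11.32, 10.55 and 11.16 in knockout livers, against 12.00, 12.12, 12.06 and 12.31 in rescued livers, 2.16-fold lower (adjusted p = 0.00222). Cyp39a1, another oxysterol hydroxylase, averaged 7.90 ± 0.29 in knockout livers (SD, n = 3) and 9.11 ± 0.75 in rescued livers (SD, n = 4), 2.31-fold lower (adjusted p = 0.0328). Its groups overlapped, because rescued replicate 1 read 8.02, and the call was lost without any 1 of knockout replicates 1 to 3 or rescued replicates 2 to 4 (adjusted p = 0.0515 to 0.112).

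Of 9 genes of SREBP processing and sterol-dependent turnover, 1 was called, against 14.4% of all genes. Paqr3, a Golgi protein that binds SCAP and SREBP, read 7.61, 7.50 and 7.60 in knockout livers, against 8.09, 8.20, 8.07 and 8.14 in rescued livers. The groups were well apart, with a difference of -0.56 (adjusted p = 0.00113). Among 10 genes of lipoprotein receptors and sterol efflux, the oxysterol receptor gene Nr1h3 (LXR alpha) averaged 9.06 ± 0.12 in knockout livers (SD, n = 3) and 9.65 ± 0.07 in rescued livers (SD, n = 4), a difference of -0.59 (adjusted p = 0.00163). Lrpap1, a chaperone of lipoprotein receptors, was lower with a difference of -0.37 (adjusted p = 0.0135). Vldlr was called higher (0.25, adjusted p = 0.0325), but its levels lay at percentiles 94.8 in knockout and 93.6 in rescued livers of 1190 olfactory and vomeronasal receptor genes, and it was not called in any of the 3 rescalings (adjusted p = 0.145 to 0.381) or without any 1 of knockout replicates 2 and 3 and rescued replicates 2 to 4 (adjusted p = 0.0587 to 0.0895).

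Of 22 other sterol carriers and lysosomal genes, 2 were higher and 1 was lower. Over all genes, the background for each list here, 9.54% were called higher and 4.85% lower. Lipa, the lysosomal lipase that frees cholesterol from its esters, read 12.05, 12.07 and 11.62 in knockout livers, against 11.33, 11.25, 11.36 and 11.21 in rescued livers, 1.54-fold higher (adjusted p = 0.00622). Stard13, a START domain protein, was 1.49-fold higher (adjusted p = 0.00167), and Osbpl8, of the oxysterol-binding protein family, was 1.34-fold lower (adjusted p = 0.0279), with its call lost without any 1 of knockout replicates 1 and 3 and rescued replicates 2 to 4 (adjusted p = 0.0544 to 0.0801). Among 11 genes of isoprenoid use, Rabggta, a subunit of the enzyme that puts geranylgeranyl groups on Rab proteins, was higher by 0.35 (adjusted p = 0.00733). Dhdds, which makes the dolichol backbone, was lower by a difference of -0.36 (adjusted p = 0.0215), and its call was lost without knockout replicate 2 (adjusted p = 0.0567) or rescued replicate 2 (adjusted p = 0.0601).

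Of 10 sterol-responsive genes outside cholesterol synthesis, the acetyl-CoA synthetase Acss2 (0.67, adjusted p = 0.0414) and the elongase Elovl6 (0.36, adjusted p = 0.0462) were called higher. Over all genes 9.54% were called higher. Of 4 other sterol synthesis genes measured, 1 was called, the cytochrome b5 reductase Cyb5r3 (0.28, adjusted p = 0.0409). None of these 3 was called after any of the 3 rescalings, with adjusted p from 0.0621 to 0.127. With arrays left out, Acss2 and Elovl6 kept their calls only without rescued replicate 1, and Cyb5r3 only without knockout replicate 3 or rescued replicate 1.

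**Figure D5:**
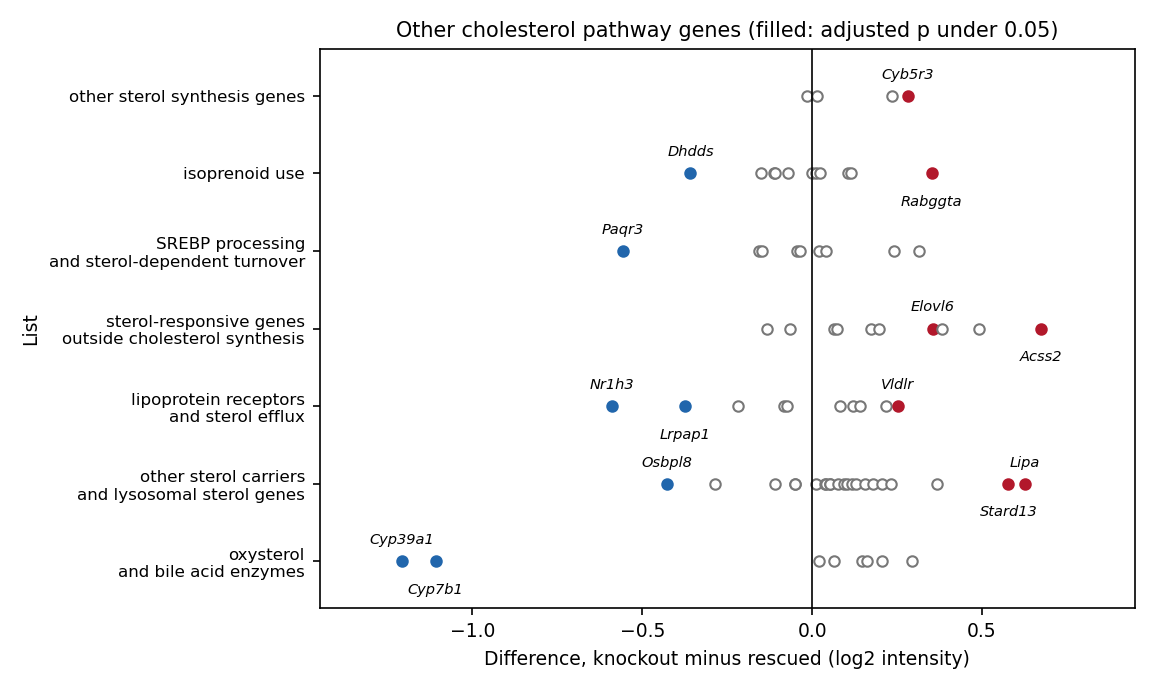
Difference in log2 intensity (x axis, knockout minus rescued) of the 74 measured genes of the 7 other cholesterol pathway lists (y axis). Filled points were called at adjusted p under 0.05, red higher and blue lower, and the named ones include Cyp7b1 at -1.11, Paqr3 at -0.56 and Lipa at 0.63.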

How the data were processed

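Livers were frozen in liquid nitrogen and total RNA was isolated with Trizol and biotin-labelled, per the labels. The authors deposited 1 linear intensity for each probe set on each array, and the values run from 5.41 to 17351. RMA and Partek are listed in the submitters' processing notes, with no version, and the final scaling is unknown.

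Log2 was taken of the deposited intensities, with no offset, rescaling or filter. Of 27541 probe sets, 21631 had 1 gene symbol in the platform annotation, 1317 several and 4593 none, and the brightest with 1 symbol stood for each of 19933 genes. The fit used lmFit and eBayes (limma 3.58.1, R 4.3.3), two-sided with no covariates, and Benjamini-Hochberg adjustment over all genes at 0.05. It was first run on simulated data with independent noise and shifts of 1 on the log2 scale. Smaller differences and genes that vary together were not covered by that run. The number of arrays limits the precision. At most 3.79% of values were equal between any 2 arrays. The labels call the arrays biological replicates.

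Array values are given for members that were called, differed by at least 1.3-fold or did not overlap between groups, and from each other list up to 3 called genes with the largest differences are named. Array values of Insig1, Sqle and the second probe sets of Idi1 and Fdft1, and the order of the rescued arrays, were added after the values were seen. Members and lists were chosen with earlier results of these data known. Alternatives were quantile, median and cyclic loess scaling, a filter on dim genes, averaging of probe sets, a trended and robust spread, array weighting, a replicate block and leaving out each array.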

Additional observations from a re-analysis of the deposited data

Results flagged for a closer look

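Of 46 genes checked for an array that stands apart among the 4 rescued livers, 2 had one, and chance alone would mark about 1 in 20. Scarb1 read 10.73 in rescued replicate 4, while the other rescued livers read 10.40 to 10.42. Without it the difference was 0.25 (adjusted p = 0.0693). Vldlr read 5.97 in rescued replicate 3, while the other rescued livers read 6.04.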

How the results depend on the processing

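With each array left out, 1 to 3 members were called higher and none lower. The count of 1 arose without knockout replicate 1, where Insig2 kept its call and Hmgcs1 did not. Lcat was called lower after quantile normalization, after cyclic loess, among genes above the median level and with trend and robust spread (1 each). After median centring 2 members were called lower, Lcat and Stard5. The count of 3 arose without knockout replicate 3, where Insig1 was added, and without rescued replicate 1, where Mvd was added. Over all genes 897 to 3263 passed with an array left out, against 2867 with all, and among the other pathway genes 7 to 16, against 14. Over all genes, leaving out knockout replicate 1 gave 897 and knockout replicate 2 gave 1721, while leaving out rescued replicates 2, 3 and 4 gave 1200, 948 and 1331. Among the other pathway genes these 5 counts were 9, 8, 7, 8 and 8. Hdac3 ranged from -0.56 to -0.40 and lost its call without knockout replicate 1 (-0.49). Differences near 0 changed sign without a call. After median centring these were Mvk (-0.0446), Srebf2 (-0.0448) and Npc1 (-0.0172), Stard3 was at 0.0031 after cyclic loess and 0.0168 after quantile normalization, and Idi1 at -0.12 with probe sets averaged. With each array left out, Mvk ranged from -0.0459 to 0.11, Sqle from -0.0534 to 0.32, Cyp51 from -0.0327 to 0.29, Tm7sf2 from -0.14 to 0.0303, Stard3 from -0.0777 to 0.0283 and Mylip from -0.15 to 0.0345. The causes were not tested. With trend and robust spread Acss2 (adjusted p = 0.075) and Cyp39a1 (adjusted p = 0.102) lost their calls. The replicate block, in which rescued replicate 4 has no partner, gave 1938 genes and the same 2 members, Hmgcs1 and Insig2, with Sqle at -0.0534 and Cyp51 at -0.0327. It ended the calls of Cyb5r3 (adjusted p = 0.0774) and Vldlr (adjusted p = 0.0709) and of no other pathway gene named above. Deviations of arrays with equal numbers correlated over genes at 0.15, 0.0028 and 0.0053, and knockout replicate 2 correlated best with rescued replicate 3, so equal numbers were not read as pairs. The small number of arrays limits what could be called.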
